A study of Mus musculus with 3 samples.

Results

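*Adamdec1* fibroblasts are stromal cells that were carried along in a library of Peyer's patch (PP) blood endothelial cells (EC), and they were chosen here by the UMIs (unique molecular identifiers, counted RNA molecules) of single cells. A cell was counted as a fibroblast when it held at least 5 UMIs of *Col1a1*, *Col1a2*, *Dcn*, *Pdgfra* and *Lum* together and more of these than of the endothelial genes *Pecam1*, *Cdh5*, *Egfl7*, *Emcn* and *Flt1*. A fibroblast was an *Adamdec1* fibroblast when it held at least 4 UMIs of *Adamdec1*, *Col6a5*, *Tcf21* and *Hsd11b1* together and more of these than of the genes of each of 3 mirrored classes. These were the *Ccl19* class (*Ccl19*, *Cpxm1*, *Tnfsf13b*, *Thbs4*), the *Pi16* class (*Pi16*, *Mfap5*, *Igfbp6*, *Scara5*) and the *Bmp7* class (*Bmp7*, *Wif1*, *Fgf9*, *Tmem119*). In the control library 1388 cells met this rule, of 2643 fibroblasts and 5473 cells. Over all libraries 1393 of 11466 cells met it.

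Messenger RNA was counted by droplet-based 3′ single-cell sequencing in 3 libraries, all labelled as blood EC of PP from mice aged 6 to 10 weeks. The control library is labelled WT, of the C57BL/6 strain. The 2 EC-iCOUP-OE libraries came from CDH5(PAC)CreERT2;COUP-TFIIOE/OE mice, in which tamoxifen switches on COUP-TFII (encoded by *Nr2f2*) under an endothelial driver, so that fibroblasts are not the targeted cells. Mice were taken 14 to 19 days after tamoxifen, male and female mice were pooled, and neither the labels nor the paper give the number of mice in each library.

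The control library held 6080 barcodes and 17341398 UMIs, and 607 barcodes were filtered. The EC-iCOUP-OE libraries had 17417260 UMIs over 4959 barcodes (replicate 1) and 3548983 UMIs over 1441 barcodes (replicate 2). The *Adamdec1* fibroblasts of the control library held 3762610 UMIs in all and between 1000 and 12990 UMIs per cell, with a median of 2549. The 1255 other fibroblasts held 4201187 UMIs, with a median of 3154. They comprised 514 cells of the *Ccl19* class (median 3779.5 UMIs), 162 of the *Pi16* class (median 3204.5 UMIs), 32 of the *Bmp7* class (median 2702 UMIs) and 547 of no class (median 2629 UMIs). Values are given as CPM, the UMIs of a gene summed over the cells of a group and scaled to 1000000 UMIs of that group, and 1 UMI in the *Adamdec1* fibroblasts stands at 0.266 CPM. All intervals are at 95% and cover counting error only.

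Members were scarce in the other libraries. EC-iCOUP-OE replicate 1 held 3 members among 18 fibroblasts and 4750 cells, and replicate 2 held 2 members among 5 fibroblasts and 1243 cells. Against the label of blood EC, 48.3% of the kept cells of the control library were fibroblasts and 40.5% endothelium by the same gene sums, and in replicates 1 and 2 endothelium made up 89.4 and 74.5%. Members made up 25.4% of the cells of the control library (Clopper-Pearson interval 24.2 to 26.5), 0.0632% (0.0130 to 0.184) of those of replicate 1 and 0.161% (0.0195 to 0.580) of those of replicate 2. All libraries were sorted for EC, so these shares are shares of what passed the sort. With 1 control library, genotype, sort and library cannot be told apart here. Replicate 1 shared 0 cell barcodes with either other library, and the control library and replicate 2 shared 12. Groups under 20 cells were not compared, and so no comparison of genotypes was made in these cells.

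Fibroblasts of the gut build the collagen and elastin scaffold of the mucosa, and they send signals to the epithelium, to vessels and to leukocytes. In this tissue fibroblasts at the tops and sides of villi are known for BMP and non-canonical WNT ligands, those near crypts for the BMP inhibitor gremlin 1 and for R-spondins, which sustain stem cells, and the reticular cells of lymphoid follicles for the chemokines CCL19 and CCL21. *Adamdec1* encodes a secreted metalloprotease of the ADAM family that is known from gut stroma and macrophages. *Col6a5* encodes a collagen VI chain, *Tcf21* a basic helix-loop-helix transcription factor of fibroblast precursors, and *Hsd11b1* the enzyme that turns inactive glucocorticoid into its active form. The position of the cells in the tissue was not measured.

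On GRCm38 the protein-coding genes of the rule lie on chromosome 14 from 68563380 to 68582095 (*Adamdec1*), on chromosome 9 from 105856078 to 105960643 (*Col6a5*), on chromosome 10 from 22817281 to 22820174 (*Tcf21*) and on chromosome 1 from 193221634 to 193264075 (*Hsd11b1*), all on the minus strand. The marker genes *Ccl11* and *Cxcl14*, which the rule did not use, lie on chromosome 11 from 82057823 to 82062955 (plus strand) and on chromosome 13 from 56288643 to 56296551 (minus strand).

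Of these 6 genes, 4 have a promoter in the RefSeq table used here (GRCm38.p6, 250 bases before to 50 bases after the start), and they are shown because the genes mark the same cells. They span chr9:105960594-105960893, chr10:22820094-22820393, chr1:193242311-193242610 and chr13:56296502-56296801, each read on the minus strand. The *Hsd11b1* start of that table lies inside the span given above. Capitals mark the letters CAGCTG, the E-box (the palindromic core that basic helix-loop-helix factors such as TCF21 are known to bind), or AGGTCA on either strand (read as TGACCT on the other), the half-site of nuclear receptors such as COUP-TFII and the retinoic acid receptors.
*Col6a5*: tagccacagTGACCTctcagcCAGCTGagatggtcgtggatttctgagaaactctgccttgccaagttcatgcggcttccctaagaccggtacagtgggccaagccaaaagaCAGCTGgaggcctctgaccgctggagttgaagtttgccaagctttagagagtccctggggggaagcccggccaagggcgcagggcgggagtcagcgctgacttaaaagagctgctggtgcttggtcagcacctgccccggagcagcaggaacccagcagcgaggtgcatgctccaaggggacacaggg
*Tcf21*: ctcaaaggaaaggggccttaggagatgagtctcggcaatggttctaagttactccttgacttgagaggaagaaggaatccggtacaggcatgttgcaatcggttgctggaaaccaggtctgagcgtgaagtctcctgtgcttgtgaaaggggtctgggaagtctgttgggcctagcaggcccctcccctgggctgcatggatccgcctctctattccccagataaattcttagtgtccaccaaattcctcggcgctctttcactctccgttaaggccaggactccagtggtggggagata
*Hsd11b1*: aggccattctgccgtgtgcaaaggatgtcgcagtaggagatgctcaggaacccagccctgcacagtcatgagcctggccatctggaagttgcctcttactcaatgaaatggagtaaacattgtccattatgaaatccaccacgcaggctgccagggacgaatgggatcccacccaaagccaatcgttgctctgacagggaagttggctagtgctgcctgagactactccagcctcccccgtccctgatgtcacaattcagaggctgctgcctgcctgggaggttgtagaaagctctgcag
*Cxcl14*: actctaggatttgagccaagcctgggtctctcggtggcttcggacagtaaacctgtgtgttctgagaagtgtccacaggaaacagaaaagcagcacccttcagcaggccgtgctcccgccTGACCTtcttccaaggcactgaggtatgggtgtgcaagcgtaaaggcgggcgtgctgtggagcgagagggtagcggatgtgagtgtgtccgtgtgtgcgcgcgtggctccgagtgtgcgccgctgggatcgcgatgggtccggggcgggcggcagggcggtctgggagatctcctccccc
The *Col6a5* promoter held 2 E-boxes and 1 half-site, the *Cxcl14* promoter 1 half-site, and these letters did not occur in the *Tcf21* and *Hsd11b1* windows. Of all 32851 promoters in the table, 16.3% held the E-box and 16.3% the half-site. A match of letters is a description of the window and no measure of binding.

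The rule genes had the levels that the rule asks for, and they are given as a description. *Adamdec1* stood at 7266 CPM (7180 to 7353) in members and 98.3 CPM (89.1 to 108) in other fibroblasts. *Col6a5* stood at 437 and 17.9 CPM, *Tcf21* at 1165 and 263 CPM, and *Hsd11b1* at 423 and 55.2 CPM. Per member, *Adamdec1* ranged from 0 to 79 UMIs with a median of 17, and *Tcf21* from 0 to 17 with a median of 3. All 4 rule genes were seen in 397 members (28.6%), 3 in 590, 2 in 316 and 1 in 85, while 87 members had no *Adamdec1* UMI. The sum over the 4 genes ran from 4 to 90 UMIs with a median of 23.

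After each cell was thinned to 1000 UMIs, *Adamdec1* was seen in 89.4% of members (87.7 to 91.0), *Tcf21* in 64.0%, *Col6a5* in 33.6% and *Hsd11b1* in 30.7%. Without thinning these shares were 93.7, 87.1, 59.7 and 53.1%. In the 32 cells of the *Bmp7* class the thinned shares were 59.4% for *Adamdec1*, 15.6% for *Tcf21*, 31.25% for *Col6a5* and 0% for *Hsd11b1*. The share of *Col6a5* there was thus near that of members. *Tmem119*, a gene of the *Bmp7* class, was seen in 21.5% of thinned members and 9.16% of other fibroblasts. In blood EC of the same library, which should lack these genes, the thinned shares were 1.49% for *Adamdec1*, 0.361% for *Tcf21*, 0.0452% for *Col6a5* and 0.136% for *Hsd11b1*. The median depth was 2543 UMIs in EC and 2549 UMIs in members, and the shares in members follow from the rule.

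*Ccl11*, which encodes eotaxin-1, the chemokine of eosinophils, was high in members. It stood at 1442 CPM (1404 to 1481) in members and 260 CPM (245 to 276) in other fibroblasts, 5.55-fold higher. *Ccl11* ranged from 0 to 74 UMIs per member with a median of 2, and it was seen in 62.3% of thinned members, 18.4% of other fibroblasts and 0.226% of EC. Each of the 3 mirrored classes lay lower, with 302 CPM in the *Ccl19* class, 125 CPM in the *Pi16* class and 299.7 CPM in the *Bmp7* class.

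*Cxcl14* encodes a chemokine known from epithelia and stroma. It stood at 304 CPM (286 to 322) in members and 48.6 CPM (42.1 to 55.7) in other fibroblasts, 6.25-fold higher, but its level in the *Bmp7* class was 1545 CPM (1294 to 1829). It was seen in 19.5% of thinned members, in 16 of the 32 cells of the *Bmp7* class and in 0 of 2214 EC, which at 3 cells allows a share of thinned cells with a UMI of up to 0.136%. Without thinning the share was 33.1% in members and 0.0903% in EC. *Ccl11* was thus higher in members than in each mirrored class, while *Cxcl14* was higher than in the *Ccl19* class (12.8 CPM) and the *Pi16* class (7.48 CPM) and lower than in the *Bmp7* class.

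**Figure D1:**
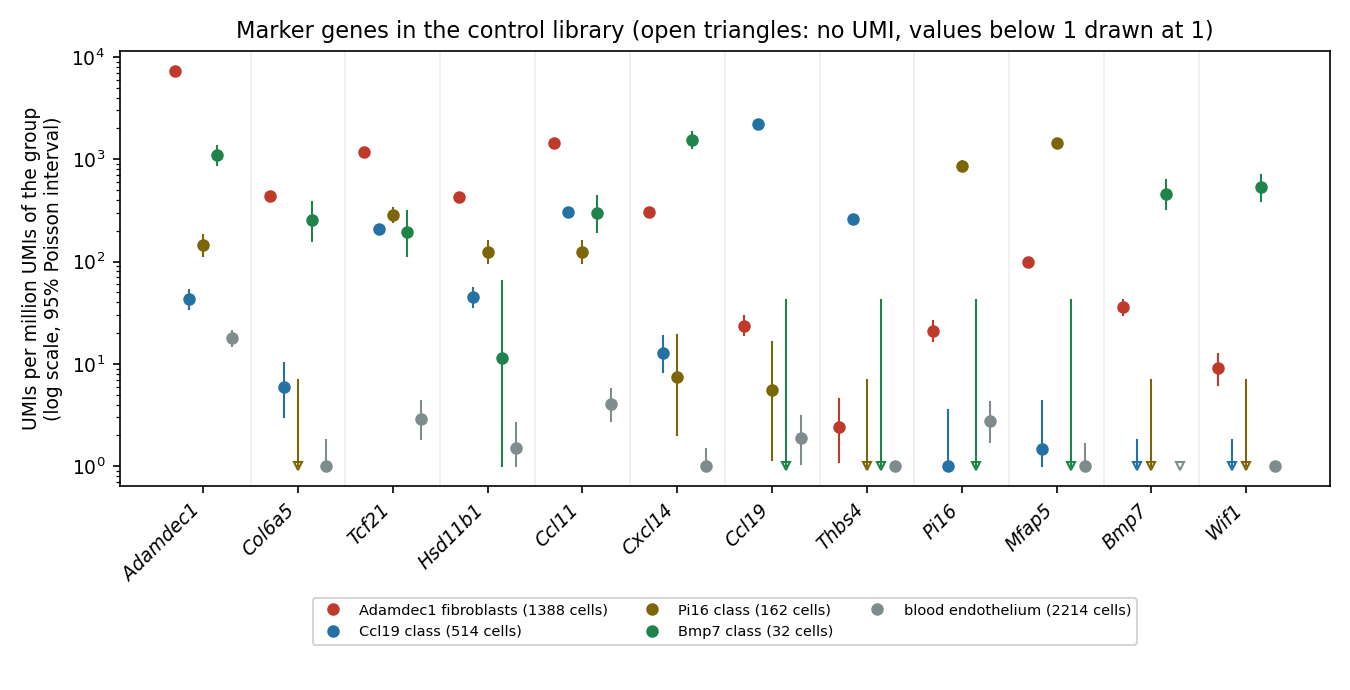
Levels of the 6 marker genes and of 6 genes of the mirrored classes in the control library, as CPM on a log axis, with 95% Poisson intervals, by fibroblast class and in blood endothelium (cell numbers in the legend; values below 1 CPM are drawn at 1, open triangles hold no UMI). *Ccl11* is highest in members (1442 CPM), and *Cxcl14* in the *Bmp7* class (1545 CPM).

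The threshold cut through a range of values. In the 105 members with a sum of 4 or 5 over the rule genes, *Ccl11* stood at 499 CPM and complement *C3* at 3294 CPM. In the 140 fibroblasts with a sum of 3, outside the rule, *Ccl11* stood at 258 CPM and *C3* at 3398 CPM. In the 707 members at or above the median sum of 23, *Ccl11* stood at 1768 CPM and *C3* at 475 CPM. Another 101 fibroblasts had a sum of at least 4 but did not exceed a mirrored class.

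Members were then set against the other control fibroblasts, with 10 CPM added to both levels before the log2 ratio was taken. The members were chosen on counts of these same cells and 1 library gives no replicates, so no test was run and a gene was called by size alone, at a 2-fold difference and at least 50 UMIs in 1 of the groups. Of 7909 genes outside the rule, 156 (1.97%) were at least 2-fold higher in members and 182 (2.3%) at least 2-fold lower. The median log2 ratio over these genes was 0.10, and scaling by the median of gene ratios put it at −0.002. Values below are to be read against this shift, and counts of called genes in a list against 1.97% higher and 2.3% lower.

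The 15 genes with the highest ratio outside the rule and the markers had log2 ratios of 2.10 to 3.43. They were *Fhl2*, *Frzb*, *Adap2*, *Lpl*, *Adap2os*, *Lrat*, *Efemp1*, *Mmp10*, *Aldh1a3*, *Vcan*, *Ces1d*, *Agt*, *Srpx2*, *Bmp5* and *Hpse*. *Fhl2*, which encodes a LIM domain cofactor, stood at 229 CPM (214 to 245) in members and 12.1 CPM (9.04 to 16.0) in other fibroblasts. *Frzb*, a secreted WNT antagonist, stood at 171 CPM (158 to 185) and 15.5 CPM (11.9 to 19.7). *Lpl*, lipoprotein lipase, stood at 434 CPM (413 to 455) and 63.6 CPM (56.2 to 71.7). *Agt*, which encodes angiotensinogen, was low in both, with 156 UMIs (41.5 CPM) and 7 UMIs (1.67 CPM). *Ces1d*, a carboxylesterase of lipid breakdown, stood at 281 and 55.5 CPM. *Adap2os* is antisense to *Adap2* on chromosome 11 and overlaps it, and whether the counting used strand is not given in the sources used here, so the pair (log2 ratios 2.47 and 2.80) may share reads.

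All 15 genes were at least 2-fold higher in members than in the *Ccl19* class and than in the *Pi16* class, but 5 were so against the *Bmp7* class. These were *Frzb*, *Lpl*, *Aldh1a3*, *Ces1d* and *Hpse*, which encodes heparanase, an enzyme that cuts heparan sulphate. *Frzb* and *Hpse* had 0 UMIs in the *Bmp7* class, where 3 UMIs would stand at 34.6 CPM. Another 8 of the 15 were higher in the *Bmp7* class than in members, for example *Efemp1* (82 UMIs, 945 CPM, against 280.4 CPM), which encodes the elastic fibre protein fibulin-3, and *Srpx2* (50 UMIs, 576 CPM, against 195 CPM). The *Bmp7* class rests on 32 cells and 86751 UMIs, and its values have wide intervals. Against the mean of the 3 classes with equal weight *Fhl2* (0.96), *Lrat* (0.49) and *Adap2os* (0.60) were no longer past 2-fold, and *Efemp1* (−0.26), *Mmp10* (−0.47), *Srpx2* (−0.080) and *Bmp5* (−0.13) turned direction.

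Against the single classes, 330 of 7480 genes (4.41%) were at least 2-fold higher in members than in the *Ccl19* class and 211 (2.82%) lower. Against the *Pi16* class 353 of 7384 genes (4.78%) were higher and 100 (1.35%) lower, and against the *Bmp7* class 1192 of 7382 (16.1%) were higher and 462 (6.26%) lower. Of the 156 genes higher against all other fibroblasts, 149 were also called against the *Ccl19* class, 106 against the *Pi16* class, 64 against the *Bmp7* class and 39 against all 3. The *Bmp7* class was too shallow for many of these calls. Of the 1192 genes 950 had at most 3 UMIs there and less than 2-fold of that floor (34.6 CPM) in members, which leaves 242, and likewise 31 of the 64 and 19 of the 39 remain. *Fgfr2*, *Ncam1*, *Col15a1* and *Cxcl13* were among the 19, beside *Ccl11*, *Frzb*, *Lpl*, *Aldh1a3*, *Ces1d* and *Hpse*. Of the 182 lower genes, 155 were also lower than in the *Ccl19* class, 23 than in the *Pi16* class and 9 than in the *Bmp7* class.

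**Figure D2:**
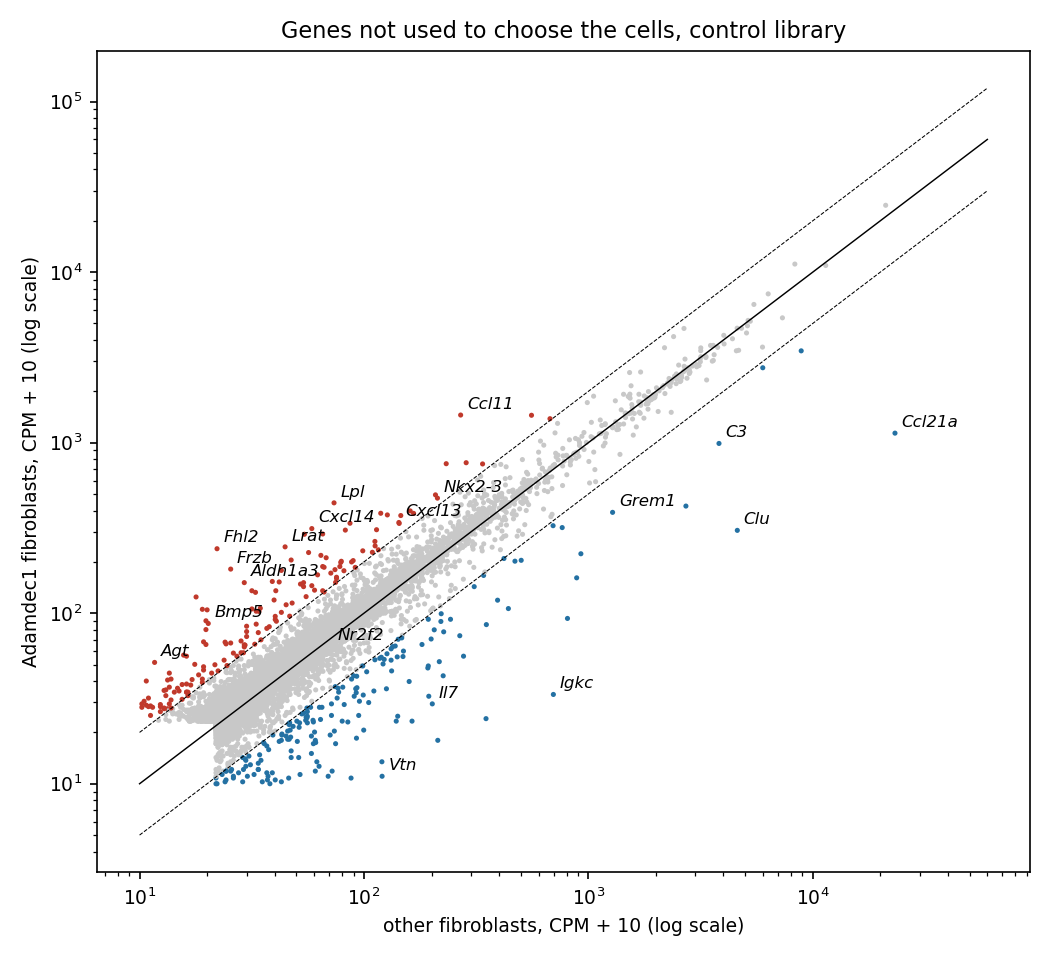
Each point is 1 of the 7909 genes outside the rule, with CPM + 10 in other fibroblasts on the x axis and in *Adamdec1* fibroblasts on the y axis (both log scales, control library). The solid line is equality and the dashed lines are 2-fold, the 156 higher genes are red and the 182 lower genes blue, and *Ccl21a* lies farthest to the right below the line (23242 CPM against 1127 CPM).

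The 10 lowest genes were *Igkc*, *Ccl21a*, *Clu*, *Stmn2*, *Jchain*, *Vtn*, *Pla2g5*, *Serpina1b*, *Ighm* and *Parm1*, with log2 ratios from −4.39 to −2.81. *Ccl21a*, the chemokine that draws CCR7-bearing lymphocytes and dendritic cells, stood at 1127 CPM in members, 23242 CPM in other fibroblasts and 42796 CPM in the *Ccl19* class. *Clu*, which encodes clusterin, stood at 296 CPM in members and 8338 CPM in the *Ccl19* class. All 10 genes were lower than in the *Ccl19* class, 9 of them by at least 2-fold, and 0 of them were 2-fold lower than in the *Pi16* or *Bmp7* class. Among the 3 mirrored classes each of the 10 was highest in the *Ccl19* class.

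*Igkc*, *Jchain* and *Ighm* are genes of antibody-producing cells. Their UMIs lay mostly in the fibroblasts of no class (2726 of 2892 UMIs of *Igkc* in other fibroblasts), and 35 of 1255 other fibroblasts and 6 of 1388 members held at least 3 UMIs of the 4 plasma cell markers. Without these cells, left out after the values had been seen, the log2 ratios were −0.46 for *Igkc*, −0.11 for *Jchain* and −0.28 for *Ighm*, a loss that the choice of cells by these genes sets in part. Without the deepest 5% of cells *Jchain* was at −0.76 and *Ighm* at −0.84, so both of these calls ended.

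Genes of retinoid metabolism were among the highest. Retinoic acid is made from retinol by a retinol dehydrogenase (RDH10) and then by retinaldehyde dehydrogenases (ALDH1A enzymes), and in the gut it is known to imprint homing of lymphocytes. *Aldh1a2* stood at 168 CPM (155 to 182) in members and 32.8 CPM (27.6 to 38.8) in other fibroblasts, and *Aldh1a3* at 141 CPM (129 to 154) and 19.3 CPM (15.3 to 24.0). *Rdh10* stood at 141 and 43.8 CPM. *Lrat*, which stores retinol as its ester and was not in the list, stood at 235 CPM (220 to 251) in members, 34.5 CPM (29.1 to 40.6) in other fibroblasts and 438 CPM (310 to 601) in the *Bmp7* class.

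Of 15 retinoid genes, 8 were measured with at least 50 UMIs. Of these 3 were at least 2-fold higher, beside 1.97% of all genes, and 1 was lower, beside 2.3%. Their median log2 ratio was 0.78, beside 0.10 for all genes. The lower gene was *Dhrs3* (24.5 against 67.1 CPM), which turns retinaldehyde back into retinol. *Cyp26b1*, which breaks retinoic acid down, was at 7.18 against 6.90 CPM, and *Rarb*, a gene that retinoic acid induces, had 6 and 5 UMIs. Against the mean of the 3 mirrored classes with equal weight the log2 ratio of *Rdh10* was 0.015 and that of *Dhrs3* −0.79, so both calls ended.

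BMP ligands leaned higher in members than in other fibroblasts. Of 8 ligand genes 5 were measured outside the rule, and all 5 had a ratio above 0, as did 5353 of all 7909 genes, 3 of them by at least 2-fold, beside 1.97% of all genes (median log2 ratio 1.02). *Bmp5* stood at 77.1 CPM (68.5 to 86.5) in members and 10.2 CPM (7.41 to 13.8) in other fibroblasts, with 254 CPM in the *Bmp7* class. *Bmp4* stood at 225 CPM (210.5 to 241) and 106 CPM (96.3 to 116), and *Bmp6* at 56.1 and 14.3 CPM. Against the equal-weight mean of the classes none of the 3 stayed past 2-fold, with log2 ratios of −0.13 for *Bmp5*, 0.95 for *Bmp6* and 0.84 for *Bmp4*. The ratio of *Bmp4* (1.02) is also the median of the list and lies near the 2-fold line. Its call ended under further alternatives, among them scaling by the median of gene ratios (0.90) and a marker sum of at least 8 (0.94).

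Of 11 BMP inhibitors 7 were measured, with a median log2 ratio of −0.80. Of these 0 were 2-fold higher (1.97% of all genes) and 2 were 2-fold lower (2.3% of all genes). A ratio above 0 was found in 2 of them, beside 5353 of all 7909 genes. *Grem1*, which encodes gremlin 1, stood at 380.3 CPM (361 to 401) in members, 1272 CPM (1238 to 1307) in other fibroblasts, 1416 CPM in the *Ccl19* class and 57.6 CPM in the *Bmp7* class. With equal class weight its log2 ratio was −0.88, against −1.72. *Chrdl1*, a chordin-like antagonist, stood at 10.4 and 63.8 CPM. Of 4 measured BMP receptor genes and 5 measured BMP target genes, 0 were called in either direction, with *Id1* at 36.4 and 28.3 CPM, *Id2* at 54.7 and 50.2 CPM and *Id3* at 465 and 502 CPM.

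WNT signals at cell surfaces are enhanced by R-spondins and blocked by secreted antagonists. Beside *Frzb*, the antagonist *Dkk3* was higher in members (218 against 99.0 CPM). Thus 2 of 6 measured WNT inhibitors were called higher (1.97% of all genes) and 0 lower (2.3% of all genes), with a median log2 ratio of 0.22. The call of *Dkk3* (log2 ratio 1.06) ended under 6 alternatives, among them TMM scaling (0.94), and that of *Frzb* (2.83) did not depend on these. *Sfrp1*, an abundant antagonist, was at 1863 against 1045 CPM and was not called. Of 3 measured R-spondin genes all lay below 0 and 1 was called, *Rspo3*, at 89.3 CPM in members and 211 CPM in other fibroblasts (232 CPM in the *Ccl19* class). With equal class weight the calls of *Rspo3* (−0.53) and *Wnt4* (0.73) ended. *Wnt4* was the called ligand of 3 measured, at 26.8 against 3.57 CPM, and *Wnt5a* stood at 19.7 and 17.1 CPM. Of 2 measured WNT target genes 0 were called.

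**Figure D3:**
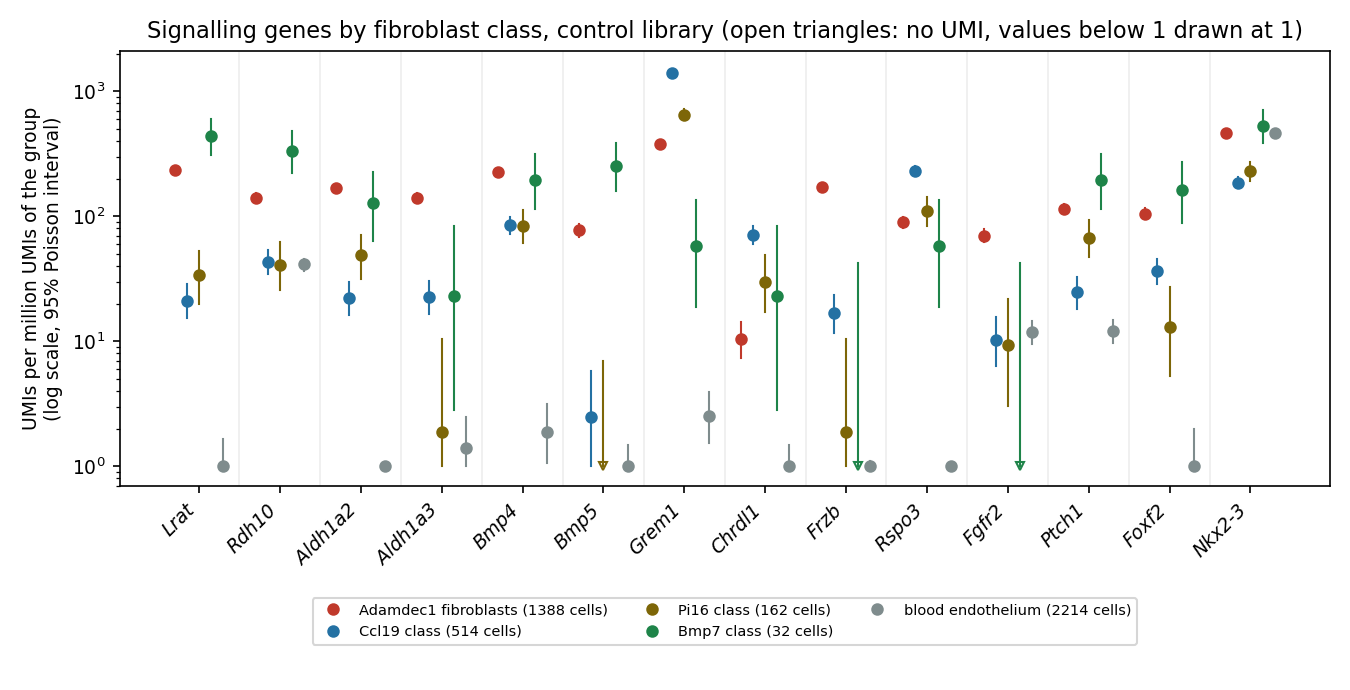
Levels of 14 signalling genes in the control library, as CPM on a log axis, with 95% Poisson intervals, by fibroblast class and in blood endothelium (values below 1 CPM are drawn at 1, open triangles hold no UMI). *Aldh1a3*, *Frzb* and *Fgfr2* are highest in members, *Lrat*, *Rdh10* and *Bmp5* in the *Bmp7* class (32 cells), and *Grem1*, *Chrdl1* and *Rspo3* are lower in members than in the *Ccl19* class.

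Growth factors and their receptors differed gene by gene. Of 15 measured growth factor genes, 3 were called higher and 3 lower, beside 1.97 and 2.3% of all genes (median log2 ratio of the list −0.41). *Ereg*, epiregulin, a ligand of the EGF receptor, stood at 144 CPM in members and 29.0 CPM in other fibroblasts. *Fgf10*, a mesenchymal factor for epithelium, was rare, with 73 UMIs in members and 1 UMI in other fibroblasts, and *Hgf*, hepatocyte growth factor, had 105 and 29 UMIs. *Vegfd*, a lymphatic growth factor (75 against 399 UMIs), *Ptn* and *Pdgfa* were lower. Among 20 measured receptor genes 2 were called higher and 0 lower, beside the same shares of all genes. These were *Fgfr2*, a receptor of FGF ligands (70.2 against 9.76 CPM), and *Ptch1*, the hedgehog receptor and a hedgehog target (115 against 45.2 CPM). The log2 ratio of *Ptch1* was 1.18, and 0.24 with equal class weight, which ended its call.

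Chemokines were split. Beside *Ccl11* and *Cxcl14*, *Cxcl16* (299 against 104 CPM) and *Cxcl13*, the chemokine of B cell follicles (330.4 against 133 CPM), were higher. Of the 12 measured, *Ccl21a*, *Ccl7*, *Ccl2*, *Cxcl9* and *Cxcl12* were lower. Over all genes 1.97% were higher and 2.3% lower. *Cxcl12* stood at 2740 CPM in members and 5978 CPM in other fibroblasts, and with equal class weight its log2 ratio was −0.68 and its call ended. *Cxcl14* turned direction with equal class weight (log2 ratio −0.76, against 2.42). *Cxcl13* was seen in 12.8% of thinned members, and 14 cells held 34.0% of its thinned UMIs. Of 12 measured cytokine genes 0 were higher and 2 were lower, beside the same shares of all genes. These were *Il7*, a survival factor of lymphocytes (19.4 against 192 CPM), and *Il33*, an alarm cytokine (109 against 384 CPM).

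Some genes of lymphoid stroma and of complement were lower in members. Of 15 measured genes of adhesion and antigen presentation 6 were called lower, beside 2.3% of all genes, 0 were called higher and 3 had a ratio above 0 (median log2 ratio −0.72), with *Vcam1*, an adhesion molecule, at 194 and 492 CPM and *Enpp2*, which makes lysophosphatidic acid, at 96.5 and 430.1 CPM. *C3* stood at 979.6 CPM (948 to 1012) in members and 3811 CPM (3752 to 3870) in other fibroblasts, and *C2* at 54.2 and 128 CPM. All 9 measured complement genes had a ratio below 0 (median log2 ratio −0.75), while 5353 of all 7909 genes had a ratio above 0. Of the 9 genes 2 were called lower, beside 2.3% of all genes.

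Most matrix genes were within 2-fold of other fibroblasts, and the basement membrane list had the highest median of them. Of 8 measured basement membrane genes 7 had a ratio above 0 (5353 of all 7909 genes) and 3 were called higher (1.97% of all genes), with a median log2 ratio of 0.81. These were the laminin chains *Lamb1*, at 254 CPM (238 to 270) in members and 102 CPM (92.5 to 112) in other fibroblasts, and *Lama2* (222 against 88.8 CPM), and the laminin-binding *Nid2* (39.9 against 11.7 CPM). With equal class weight the log2 ratios of *Lamb1* (1.24) and *Lama2* (1.23) were 0.24 and 0.95, so these calls ended. Of 18 measured collagens *Col15a1* (201 against 57.8 CPM) and *Col18a1* (176 against 56.4 CPM), both of basement membrane zones, were higher, and *Col8a1* and *Col14a1* were lower. Of 30 measured genes of elastic fibres and other matrix 6 were higher, *Efemp1*, *Vcan*, *Fbln5*, *Tnc*, *Ltbp1* and *Fn1*, and 1 lower, *Ogn* (192 against 461 CPM). The counts of collagens and of these genes stand beside 1.97% higher and 2.3% lower of all genes. *Fbln5*, needed for elastic fibres, stood at 376 and 109 CPM, and *Efemp1* turned direction with equal class weight (log2 ratio −0.26).

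Among 20 measured metalloproteases and their inhibitors *Mmp10*, *Mmp2* and *Mmp3* were called higher and 0 lower, beside 1.97 and 2.3% of all genes. *Mmp2*, gelatinase A, stood at 743 CPM in members and 223 CPM in other fibroblasts. *Mmp3*, stromelysin-1, stood at 142 and 64.7 CPM, but it was seen in 3.53% of thinned members, and 14 cells held 75.1% of its thinned UMIs. With a marker sum of at least 8 its log2 ratio was −0.40, so its call rests on few cells. The call of *Mmp10* turned direction with equal class weight (log2 ratio −0.47).

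**Figure D4:**
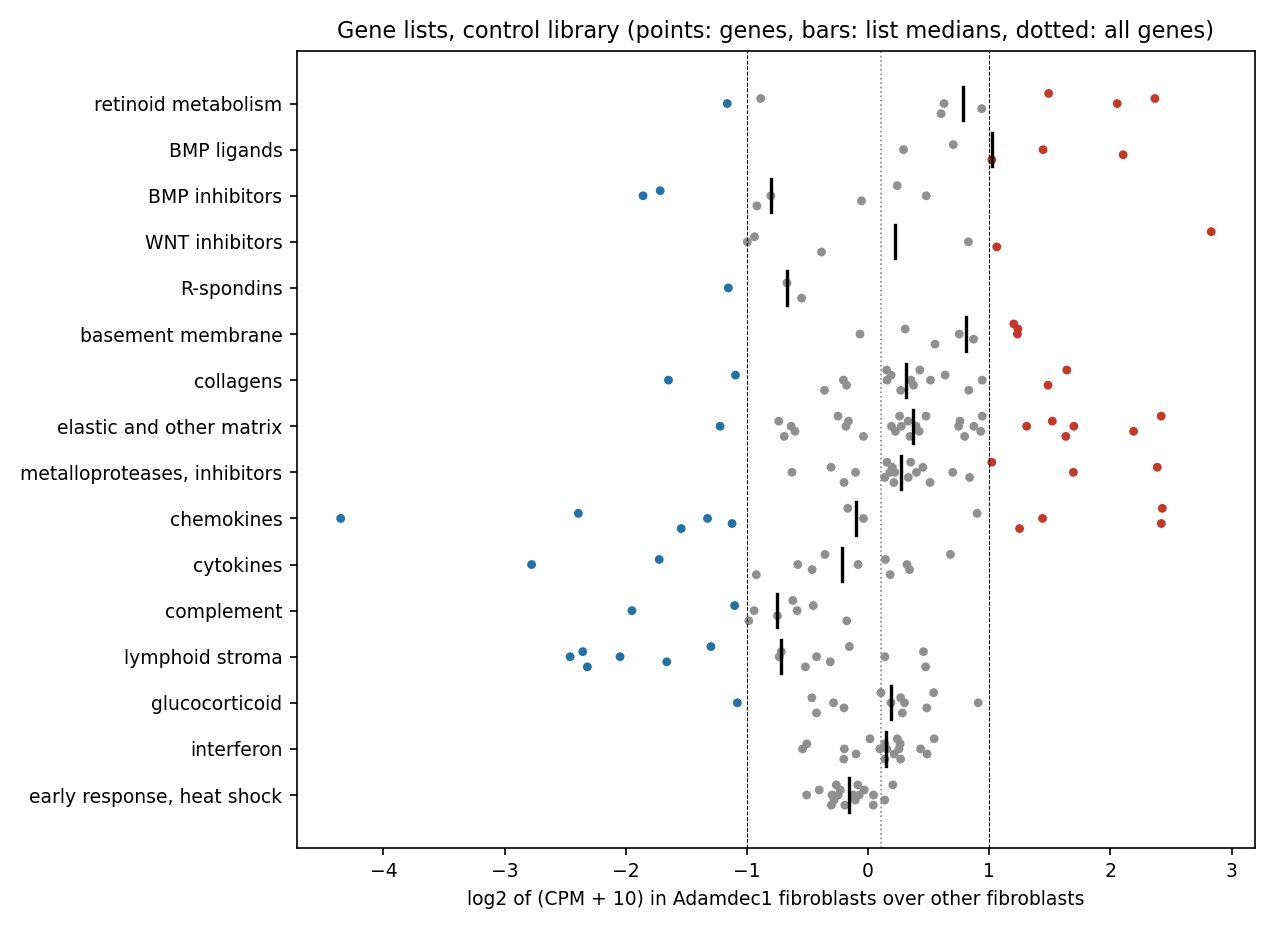
Log2 ratio of CPM + 10 in *Adamdec1* fibroblasts over other fibroblasts (x axis) for the measured genes of 16 lists (y axis), control library. Points are genes, red at least 2-fold higher and blue at least 2-fold lower, black bars are list medians, and the dotted line is the median of all 7909 genes (0.10). BMP ligands (median 1.02) and basement membrane genes (0.81) lie to the right and BMP inhibitors (−0.80) and complement (−0.75) to the left.

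The transcription factors called higher were *Foxf2* (105 against 37.8 CPM), *Tbx3*, *Pitx1* and *Nkx2-3*. Those called lower were *Prrx1*, *Foxp2* and *Ebf1*, of 26 measured, beside 1.97% higher and 2.3% lower of all genes. *Foxf2* is a forkhead factor of gut mesenchyme. *Nkx2-3*, a homeobox factor of gut mesoderm, stood at 463 CPM (441 to 485) in members, 203 CPM (189 to 217) in other fibroblasts, 530.3 CPM in the *Bmp7* class and 466 CPM in blood EC. With equal class weight *Foxf2* and *Nkx2-3* were at log2 ratios of 0.51 and 0.54 and no longer called. *Nr2f2* stood at 54.0 CPM (46.8 to 61.9) in members, 61.6 CPM (54.4 to 69.6) in other fibroblasts and 124 CPM in blood EC, and the intervals of both fibroblast groups overlapped.

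Lists that bear on the enzyme 11β-HSD1 and on handling of the tissue were near even. Beside *Hsd11b1*, 13 genes of glucocorticoid action were measured, 0 were higher and 1, *Fkbp5*, a glucocorticoid-induced chaperone, was lower (16.5 against 45.9 CPM), with *Nr3c1*, the receptor, at 151 and 124 CPM and *Tsc22d3* at 168 and 112 CPM. Of 18 immediate early and heat shock genes 0 were called (median log2 ratio −0.16), with *Fos* at 5145 and 5259 CPM and *Jun* at 3784 and 4016 CPM. Of 18 interferon-stimulated genes 0 were called (median log2 ratio 0.15). In prostaglandin metabolism *Ptgs1* was higher and *Hpgd* and *Ptgir* lower, of 13 measured, and in lipid handling *Lpl* and *Abca8a* were higher and *Apoe* lower, of 17 measured. The counts of these lists stand beside 1.97% higher and 2.3% lower of all genes.

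Markers of most other cell types were low in members, and mural markers were not. The 5 endothelial genes summed to 166 CPM in members, 203 CPM in other fibroblasts and 3763 CPM in EC. The fibroblast rule used these 5 genes, so their low level follows from the choice of cells. The 5 lymphocyte genes summed to 3.19 CPM in members with *Ptprc*, *Cd52* and *Ms4a1* at 0, the 5 myeloid genes to 12.0 CPM (most of it *Lyz2*, with *C1qb* and *Adgre1* at 0), the 5 epithelial genes to 2.92 CPM, the 4 lymphatic genes to 2.66 CPM and the 4 glial genes to 13.0 CPM. The 7 mural genes summed to 1543 CPM in members and 1606 CPM in other fibroblasts, of which *Rgs5* made up 993 and 970.2 CPM, and 678 members (48.8%) held at least 3 mural UMIs, against 59.0% of other fibroblasts. *Des*, desmin, was lower in members (75.7 against 341 CPM), and *Cspg4* was higher (17.5 against 3.33 CPM).

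Members varied among themselves. Over the 7306 genes with at least 50 UMIs, the median ratio of variance to mean of the thinned counts was 0.995, near that of counting alone. The 10 most variable genes were *Glycam1*, *Ccl21a*, *Mmp3*, *Malat1*, *Acta2*, *Igkc*, *Cxcl13*, *Actg2*, *Mgp* and *Gsn*. *Adamdec1* had a ratio of 4.02, *C3* 3.21, *Ccl11* 2.94 and *Tcf21* 1.34. *Glycam1*, a gene of high endothelial cells, stood at 844 CPM in members and 31428 CPM in blood EC, and 14 members held 61.6% of its thinned UMIs. *Malat1*, *Mgp* and *Gsn* were seen in 99.6, 72.9 and 95.3% of members.

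The members ran along a range of *Adamdec1*, and some genes of other fibroblasts were high at its low end. The cells were set into 4 bins by the *Adamdec1* UMIs left after thinning to 1000 UMIs, 0 to 2 (276 cells), 3 to 6 (350), 7 to 10 (357) and 11 to 30 (405). *C3* averaged 2.40 UMIs per 1000 (2.22 to 2.59) in the lowest bin, then 0.743, 0.451 and 0.183 (0.143 to 0.229). *Grem1* averaged 1.01 (0.892 to 1.13), 0.263, 0.157 and 0.0914 (0.0643 to 0.126). The intervals of neighbouring bins did not overlap for *C3*, and for *Grem1* those of the 2 upper bins did.

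*Ogn*, osteoglycin, went from 0.605 to 0.0198 UMIs per 1000, *Prss23*, a serine protease, from 0.710 to 0.0247, *Cd81*, a tetraspanin, from 0.460 to 0.0173 and *Ccl21a* from 2.44 to 0.0617, each lower in every step, although some neighbouring intervals overlapped, for *Ogn* and *Cd81* between the 2 middle bins and for *Cd81* and *Prss23* between the 2 upper bins. *Ccl21a* was seen in 11.1% of thinned members, and 14 cells held 54.1% of its UMIs. In contrast *Lpl* went from 0.178 (0.131 to 0.235) to 0.622 (0.548 to 0.704), *Cxcl14* from 0.145 to 0.388, *Fhl2* from 0.134 to 0.304, *Aldh1a2* from 0.0797 to 0.244 and *Nkx2-3* from 0.341 to 0.528. For these genes the intervals of the 2 upper bins overlapped. In the third bin *Lpl* (0.616), *Cxcl14* (0.378), *Fhl2* (0.300) and *Nkx2-3* (0.524) were already near their values in the highest bin. *Ccl11* went from 0.775 to 1.57 in the second bin and stayed between 1.57 and 1.90 above it. *Tcf21* stayed between 1.08 and 1.34 in all bins. *Cxcl12* went from 3.83 to 2.39 in the second bin and stayed between 2.39 and 2.58 above it. *Pi16* (0.0290 and 0.0247) and *Cxcl13* (0.293 and 0.274) were near even between the lowest and the highest bin. *Cxcl13* was highest in the second bin, at 0.560 (0.484 to 0.644), against 0.297 in the third. These bins use a rule gene, and a cell low in *Adamdec1* was chosen by the other rule genes.

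The median depth of the bins was 3064.5 UMIs in the lowest and 2596, 2424 and 2421 UMIs above it, so the lowest bin was the deepest. *C3* went from 2.51 to 0.186 UMIs per 1000 without the cells that hold at least 3 UMIs of endothelial, glial, lymphatic, lymphocyte, myeloid or epithelial markers, and from 2.41 to 0.183 without the 5% of cells with the most UMIs, and for *Grem1* the same sets gave 1.05 to 0.0882 and 1.01 to 0.0914. The genes of the bins and these leave-outs were chosen after values had been seen. Doublets of an *Adamdec1* fibroblast with another fibroblast carry no marker of another cell type, and their part in the lowest bin was not tested.

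**Figure D5:**
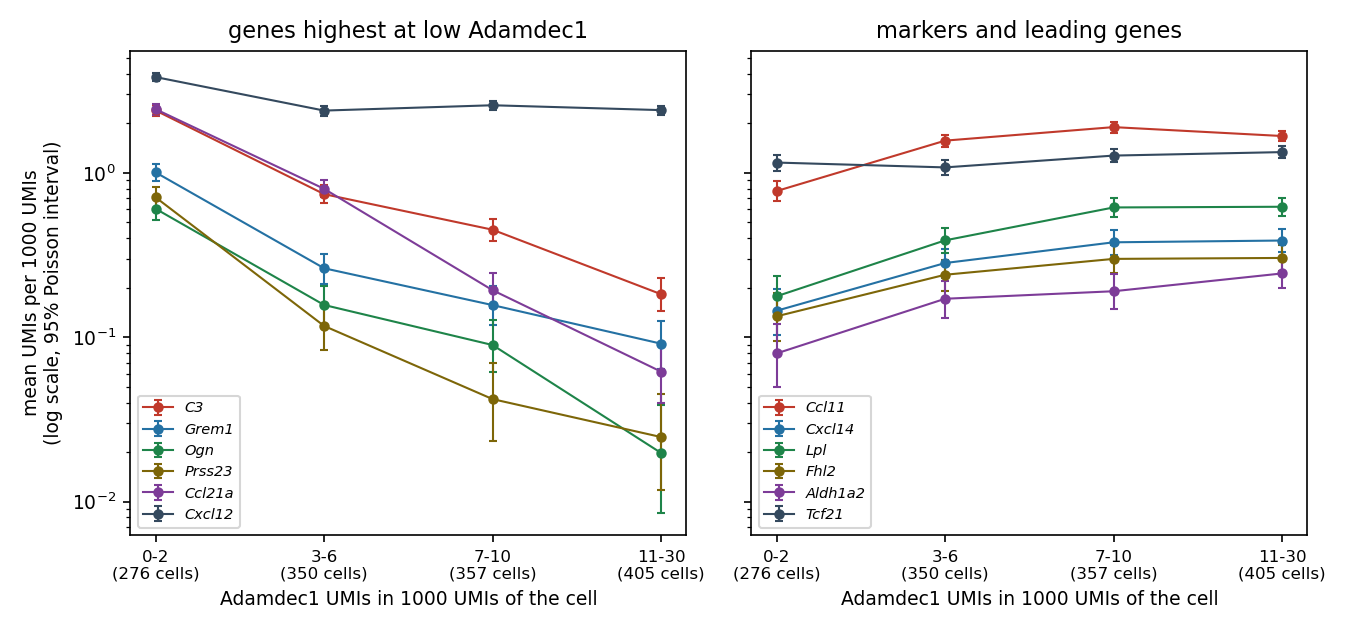
Mean UMIs per 1000 UMIs (log axis, 95% Poisson intervals) of 12 genes in the 1388 *Adamdec1* fibroblasts of the control library, binned by their *Adamdec1* UMIs after thinning to 1000 UMIs (x axis, cells per bin in brackets). On the left *C3* goes from 2.40 to 0.183 and *Grem1* from 1.01 to 0.0914, and on the right *Lpl* goes from 0.178 to 0.622 while *Tcf21* stays between 1.08 and 1.34.

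A small set of members, chosen like the next sets after the values had been seen, held smooth muscle actin, and part of it held other contractile genes. *Acta2*, smooth muscle actin, was at 2 or more thinned UMIs in 80 members (5.76%). In these 80 cells *Tagln*, transgelin, averaged 2.36 UMIs per 1000 against 0.125 in the other 1308 members, *Actg2*, enteric smooth muscle actin, 0.675 against 0.00229, *Myh11*, smooth muscle myosin, 0.400 against 0.000765, and *Ednrb*, an endothelin receptor, 0.313 against 0.0145. *Adamdec1*, which helped to choose the members, averaged 5.93 UMIs per 1000 in the set and 7.92 in the others. *Rgs5*, a pericyte gene, was lower in the set (0.463 against 1.02 UMIs per 1000), as were *C3* (0.15 against 0.875) and *Ces1d* (0.0375 against 0.329), and *Ogn* was higher (1.01 against 0.138). In all, *Actg2* was seen in 1.15% of thinned members, and 14 cells held 96.5% of its UMIs. Whether these are single cells or doublets with muscle cells was not tested.

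The genes *Cxcl14* and *Mmp10*, shared with the *Bmp7* class, went together. *Cxcl14* was seen in 270 thinned members (19.5%), and these averaged 0.256 UMIs of *Mmp10* per 1000 against 0.0653 in the other 1118, 0.793 of *Lpl* against 0.396 and 0.307 of *C3* against 0.961. *Mmp10*, stromelysin-2, was seen in 70 members, 45.7% of which held *Cxcl14* against 18.1% of the others, and these 70 averaged 0.486 UMIs of *Rdh10* against 0.115 and 3.03 of *Ccl11* against 1.45. *Cxcl13* was seen in 178 members (12.8%), in which *Adamdec1* (7.63 against 7.83 UMIs per 1000) and *C3* (0.758 against 0.845) were near the values of the other 1210. In the same 178 members *Cxcl14* (0.511 against 0.281) and *Mmp10* (0.185 against 0.0901) were higher and *Ogn* (0.0225 against 0.213) was lower. *Cxcl14* was held by 27.5% of them, against 18.3% of the others. The members with these chemokines thus overlapped in part and did not form 1 block.

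The members of the EC-iCOUP-OE libraries are given cell by cell. In replicate 1 the 3 cells held 15, 58 and 0 UMIs of *Adamdec1* and 4, 6 and 5 of *Tcf21*, and the second of them also held 17 endothelial UMIs and 4 of *Madcam1*, an addressin of venules. *Ccl11* was at 4, 4 and 0 UMIs. In replicate 2 the 2 cells held 2 and 0 UMIs of *Adamdec1*, 5 and 0 of *Tcf21* and 0 and 7 of *Col6a5*, with 0 UMIs of *Ccl11* in both. *Nr2f2* was at 1, 6 and 4 UMIs in the cells of replicate 1 and at 2 and 1 in those of replicate 2. With depths of 3977 to 7243 UMIs per cell these values describe 5 cells, and no level in these libraries can be set against the control library.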

How the data were processed

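Per the labels, PP cells of 1 control and 2 EC-iCOUP-OE libraries were assayed on the 10x Chromium 3′ platform. The authors deposited raw UMI counts per gene and barcode made with Cell Ranger against mm10, and the headers name versions 3.0.2 and 3.1.0. The counts were not scaled. Barcodes under 500 genes or 1000 UMIs, or with over 10% mitochondrial UMIs, were left out. Rows sharing a symbol (35 symbols) were summed. UMIs were summed over the cells of a group and given as CPM, with 10 CPM added for log2 ratios. Intervals are exact Poisson intervals, or Clopper-Pearson intervals for shares. No doublets were called. With 1 control library no test was run. Genes were called by a size rule (2-fold, 50 UMIs), which was tested on simulated data for members against other fibroblasts: it called 50 of 50 genes made 4-fold higher, 43 of 50 made 4-fold lower and 0 of 7572 not altered. The simulated sums were Poisson draws from the pooled profile of all fibroblasts. They held no variation among cells and no choice of cells by their counts, so they give no rate of false calls for these data. Named genes are the rule and marker genes, the 15 highest and 10 lowest ratios (50 UMIs or more, without mitochondrial, ribosomal and sex-linked genes), the 10 most variable genes, *Nr2f2*, *Nkx2-3* and, per list, the called or best-known genes and those that complete a pathway. The members and lists were chosen with earlier results of these data known. Coordinates are from GENCODE vM21 (GRCm38). Python 3.11.15, numpy 2.4.6, scipy 1.17.1, pandas 2.3.3, R 4.3.3 and edgeR 4.0.16 (TMM factors) were used.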

Additional observations from a re-analysis of the deposited data

How the results depend on the processing

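Of 53 genes past the 2-fold line that were followed gene by gene, 23 kept their direction and stayed past it under all 20 alternatives. Other called genes named above, among them *Ereg*, *Fgf10*, *Vcam1*, *Fbln5*, *Col15a1* and *Tbx3*, were not followed, and whether their calls hold was not tested. With a pseudocount of 1 CPM 260 genes were higher and 274 lower, and with 50 CPM 49 and 51, against 156 and 182. In the 47 members and 39 other fibroblasts with a Y-linked and no *Xist* UMI, an alternative chosen after seeing the data, 468 genes were deep enough and 26 were higher and 24 lower, and *Mmp3* was at −0.74 on the log2 scale. The log2 ratio of *Mmp3* was −0.40 with a marker sum of at least 8. Against the mean of the 3 classes with equal weight 117 genes were higher and 152 lower, of which 69 and 90.0 were among the 156 and 182. In this mean the 32 cells of the *Bmp7* class count as much as the 514 of the *Ccl19* class. *Cxcl14* was at −0.76, *Efemp1* at −0.26, *Mmp10* at −0.47, *Srpx2* at −0.080 and *Bmp5* at −0.13. *Fhl2*, *Lrat*, *Adap2os*, *Rdh10*, *Dhrs3*, *Bmp4*, *Bmp6*, *Grem1*, *Wnt4*, *Dkk3*, *Rspo3*, *Ptch1*, *Lamb1*, *Lama2*, *Foxf2*, *Nkx2-3*, *Cxcl12*, *Igkc*, *Jchain* and *Ighm* kept their direction there but were no longer past 2-fold. *Bmp4* and *Mmp3*, near the 2-fold line, were at 0.90 and 0.91 under TMM scaling, and with 50 CPM low genes such as *Nid2* (0.54), *Wnt4* (0.52) and *Agt* (0.82) were under 2-fold. Without cells holding 3 UMIs of another cell type's markers, 683 members were left in the control library and 0 in replicate 1. With the mural list not used, chosen after seeing that *Rgs5* is common in these fibroblasts, 1319 were left, and 163 genes were higher and 190.0 lower. Replicate 2 kept 1 member with a marker sum of at least 8 and 1 without the deepest 5% of cells. The shares of members with a UMI at no thinning and at 2000 UMIs were 93.7 and 90.5% for *Adamdec1*, 59.7 and 51.4% for *Col6a5*, 87.1 and 82.7% for *Tcf21*, 53.1 and 46.1% for *Hsd11b1*, 80.1 and 74.5% for *Ccl11* and 33.1 and 29.8% for *Cxcl14*. No paired analysis was possible because the EC-iCOUP-OE libraries hold 3 and 2 members, and for the same reason the alternatives of the genotype comparison and the ratio within each EC-iCOUP-OE library were not run.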

Other observations

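Some genes not among the groups above were higher in members than in each mirrored class. *Ncam1*, a neural cell adhesion molecule, stood at 297 CPM in members, 37.4 CPM in the *Ccl19* class, 76.7 CPM in the *Pi16* class and 34.6 CPM in the *Bmp7* class. *P2ry1*, a receptor for ADP, stood at 92.8, 17.2, 14.96 and 34.6 CPM in the same order, and *Serpine2*, a protease inhibitor, at 95.9, 22.6, 22.4 and 11.5 CPM. *Hcar1*, the lactate receptor, stood at 40.1 CPM in members and at 8.36, 5.61 and 0 CPM (46.2 CPM in blood EC), and *Areg*, amphiregulin, at 18.9 CPM in members and 0 UMIs in all 3 classes. For *Hcar1* and *Areg* the floor of the *Bmp7* class (34.6 CPM) is too high to show a 2-fold difference. The level of *Areg* in members lies below this floor, so its 0 UMIs there show no difference from that class. These genes were chosen after their values were seen, and the classes differ in depth.

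Of the members 1187 (85.5%) held *Xist* and no Y-linked UMI and 47 (3.39%) a Y-linked and no *Xist* UMI, beside 82.7 and 3.11% of other fibroblasts. Among the promoters in the RefSeq table of the 156 higher genes (143 promoters of 112 genes), 18.2% held the E-box and 9.09% the half-site, beside 21.2 and 11.5% for the 182 lower genes and 14.9 and 12.1% for the 7909 genes compared. The 2 rows added to the reference for TdTomato and CreERT2 in the control library and replicate 2 held 0 UMIs in both.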
